A study of Mus musculus with 18 samples.

Results

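The genes described here encode the constitutive proteasome and the VCP machinery that delivers proteins to it. They comprise the 14 subunits of the 20S core, 18 subunits of the 19S regulatory particle, the assembly factor Pomp, and Vcp with its cofactors Ufd1, Nploc4 and Nsfl1c, 37 of the 55401 genes listed in each library. The members were chosen by gene symbol, and the inducible immunoproteasome subunits were left out. No measured value enters that rule, but the list was drawn up with earlier results of these libraries in view, the differences between RECTAS and vehicle included, so counts over the 37 genes are given as a description and support nothing beyond it. Messenger RNA was measured in colon, lung and liver of C57BL/6N mice aged 7 weeks. RECTAS, a compound named as a rectifier of aberrant splicing, was given by mouth at 100 mg per kg body weight in 0.5% carboxymethyl cellulose (CMC), the controls received CMC alone, doses were 4 h apart, and tissue was taken 8 h after the first. Each of the 6 groups, vehicle or RECTAS in 1 of 3 tissues, held 3 libraries, 18 in all. Whether each library is a different mouse is not stated in the labels, and p-values therefore measure only the spread between these libraries.

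The proteasome degrades proteins that carry ubiquitin chains. The 20S core is a barrel of stacked alpha and beta rings whose beta subunits hold the proteolytic sites. The 19S particle caps the barrel, and in it a ring of ATPases unfolds the substrate, receptor subunits bind ubiquitin, and a lid removes the chain. VCP is an ATPase that pulls ubiquitin-tagged proteins out of complexes and membranes, for which Ufd1 and Nploc4 serve as the ubiquitin-binding adaptor. In liver this route is known to clear misfolded secretory proteins and the rate-limiting enzyme of cholesterol synthesis, and the transcription factor encoded by Nfe2l1 is known to raise proteasome genes together when proteasome activity falls short.

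Levels are in TPM, a share of all transcripts in a library corrected for transcript length, so levels of different genes can be compared. TPM keeps no read depth, and the depth is unknown. Differences are on the scale log2(TPM + 1), RECTAS minus vehicle, and were tested with limma over all genes that reached 1 TPM in 3 or more libraries of the comparison. All 37 members passed that filter in every comparison. The tissue labels matched their defining markers: summed over 7 hepatocyte genes such as Alb, vehicle liver held 88612 to 103080 TPM and vehicle colon 56.5 to 82.2. Summed over 6 genes of alveolar type 2 cells, among them Sftpc, vehicle lung held 35312 to 38815 TPM. Summed over 6 colonocyte genes such as Slc26a3, vehicle colon held 9616 to 28576 TPM. Vehicle lung also held 26.8 to 1312 TPM of the hepatocyte genes and lung under RECTAS 10.2 to 524, so the 3 lung libraries of each group differed in liver transcripts. The liver vehicle library 1 stood apart for the genes described here: it was the lowest of its group for 36 of the 37. Of the members, 17 overlap another annotated gene, and the strand setting used for quantification is not given in the sources used here.

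Promoters are shown for 5 members on which the later paragraphs turn. Adrm1, Psmd11 and Psmd4 were among the 5 members with the largest difference in liver, Vcp is the ATPase for which the VCP machinery is named, and Psmb5 is the catalytic subunit that an immunoproteasome gene replaces. The stretches come from RefSeq promoters on build GRCm38.p6, which run from 250 bases before the gene's start to 50 after it, and are cut back to bases that no GENCODE M21 exon covers. Capitals mark the core of the antioxidant response element (TGACNNNGC), the element through which the Nfe2l1 factor is known to act, and the binding site of ETS factors (CCGGAAG), each on either strand.
Adrm1, chr2:180171338-180171484, plus strand: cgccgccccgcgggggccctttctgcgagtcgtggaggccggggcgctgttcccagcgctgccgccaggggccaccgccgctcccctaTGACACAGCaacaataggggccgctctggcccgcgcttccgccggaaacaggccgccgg
Psmd11, chr11:80428365-80428614, plus strand: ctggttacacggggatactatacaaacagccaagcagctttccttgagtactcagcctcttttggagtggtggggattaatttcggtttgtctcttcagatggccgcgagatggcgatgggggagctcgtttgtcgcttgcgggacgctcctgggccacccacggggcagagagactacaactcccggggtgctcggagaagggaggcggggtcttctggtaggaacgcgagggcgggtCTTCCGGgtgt
Psmd4, chr3:95042615-95042864, minus strand: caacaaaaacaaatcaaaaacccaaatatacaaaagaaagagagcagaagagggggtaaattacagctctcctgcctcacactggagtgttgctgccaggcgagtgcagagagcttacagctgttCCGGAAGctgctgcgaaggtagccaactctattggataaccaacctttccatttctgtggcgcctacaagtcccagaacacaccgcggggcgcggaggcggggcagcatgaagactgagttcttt
Psmb5, chr14:54618023-54618245, minus strand: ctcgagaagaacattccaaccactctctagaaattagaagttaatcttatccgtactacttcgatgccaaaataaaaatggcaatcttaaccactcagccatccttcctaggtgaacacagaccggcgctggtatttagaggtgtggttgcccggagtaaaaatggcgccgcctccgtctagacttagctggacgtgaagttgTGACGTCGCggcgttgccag
Vcp, chr4:43000508-43000757, minus strand: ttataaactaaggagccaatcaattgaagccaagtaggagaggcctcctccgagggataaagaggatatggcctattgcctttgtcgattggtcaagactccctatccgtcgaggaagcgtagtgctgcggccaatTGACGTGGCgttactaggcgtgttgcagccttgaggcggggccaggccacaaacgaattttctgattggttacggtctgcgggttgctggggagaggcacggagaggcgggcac

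Adrm1, Psmb5 and Vcp each hold 1 antioxidant response element core, which begins 162, 47 and 114 bases before the RefSeq start. Psmd11 and Psmd4 hold 1 ETS site each, 11 and 125 bases before the start. Adrm1 also holds 1 ETS site, which begins 21 bases after the start and lies outside the stretch shown. The counts that follow use the whole promoter window, shown or not. A RefSeq promoter was matched for 31 of the 37 members, all but Psmb1, Psmb2, Psmb7, Psmc3, Psmd3 and Psmd7. Of the 31, 6 (19.4%) had the antioxidant response element core (Adrm1, Psmb5, Psmb6, Psmc6, Psmd12 and Vcp), and 14.0% of 27025 genes had it in a window of the same length. The ETS site stood in 13 (41.9%) of the members and in 9.93% of all genes. The GC box (GGGCGG, either strand) stood in 18 members (58.1%), against 38.2% of all genes, and the nuclear respiratory factor site (either strand) in 7 (22.6%), against 5.19%. The CCAAT box (CCAAT, either strand) was near the level of all genes, at 41.9% against 41.1%, and so was a pair of heat shock elements (GAANNTTC, the same on both strands), at 9.68% against 9.04%. A site inside a longer element of another kind was counted for both. The promoters of Psmd14 and Psmc4, also among the 5 largest differences in liver, held neither of the capitalised sequences. These matches describe letters in a window, and nothing in these data measures binding there.

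In vehicle tissue every member was expressed, and the 20S core genes stood above the 19S genes. The median level was 126 TPM over the 14 core genes and 64.7 TPM over the 18 regulatory genes in colon, 123 and 75.2 TPM in lung, and 113 and 56.8 TPM in liver. Psmb6, which carries the caspase-like site of the beta ring, was the highest member in lung and liver, with 191, 185 and 191 TPM in the lung libraries and 165, 179.6 and 187 TPM in the liver libraries. In colon the alpha ring subunit Psma7 came first, with 154, 152 and 160.4 TPM. The highest and the lowest member lay 6.39-fold apart in colon, 7.18-fold in lung and 7.56-fold in liver. The subunits are assembled in equal numbers, but their transcripts were not equally abundant: within the alpha ring, Psma2 was at 38.7 ± 5.86 TPM (SD, n = 3) in liver and Psma3 at 156 ± 19.1 TPM. The lid was the least even part of the 19S particle in colon, from Psmd12 at 33.2 ± 0.548 TPM (SD, n = 3) to Psmd8 at 128 ± 7.06 TPM.

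Among the VCP genes, Vcp stood far above its adaptors in every tissue. Its libraries were at 135, 133 and 129.8 TPM in colon, 161, 161 and 166 TPM in lung and 119.8, 146 and 154 TPM in liver. Nploc4, the lowest VCP cofactor in colon and lung, was at 23.5, 24.4 and 25.2 TPM in colon, 26.7, 26.3 and 25.9 TPM in lung and 23.1, 27.4 and 26.0 TPM in liver, and did not pass the test between any 2 tissues. Ufd1, which pairs with Nploc4 in the adaptor, was at 52.7, 51.0 and 45.4 TPM in lung and 21.8, 25.9 and 22.6 TPM in liver. Nsfl1c, the cofactor for membrane fusion, was at 91.4, 97.5 and 95.8 TPM in lung, above the 47.6, 54.3 and 54.7 TPM of liver. The order of the 37 levels was close between tissues: Spearman's rho over the genes was 0.95 for colon and lung, 0.92 for colon and liver, and 0.90 for lung and liver, a description over genes measured in shared libraries.

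**Figure D1:**
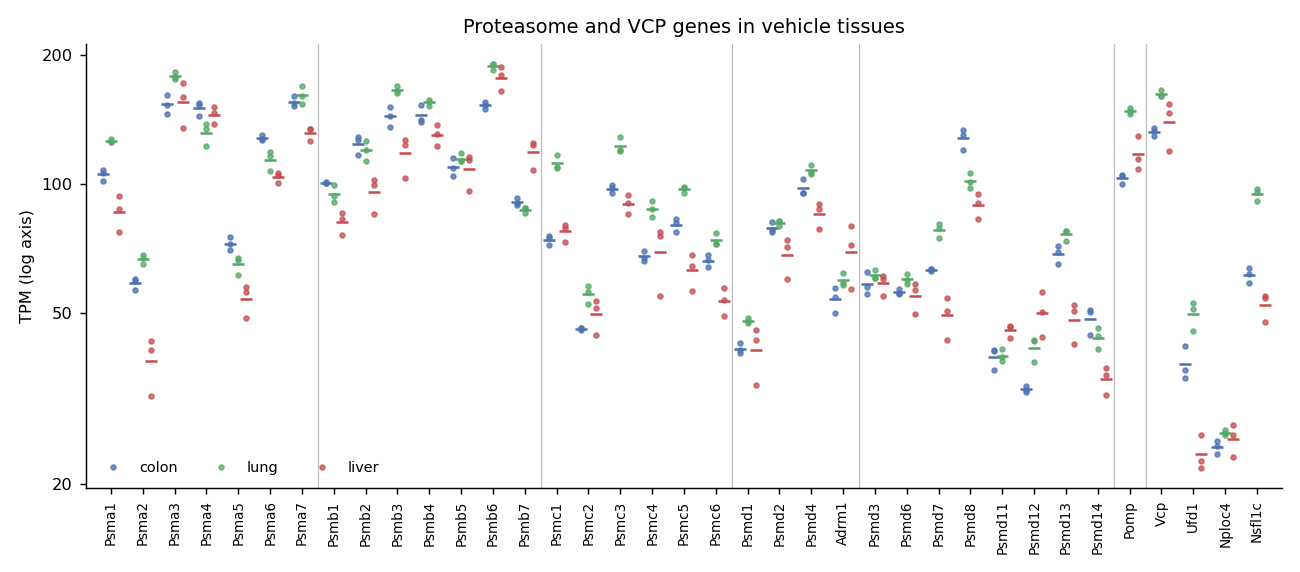
TPM (log axis) of the 37 genes in the vehicle libraries of colon, lung and liver, 3 points per gene and tissue with the mean as a dash, grouped by role with grey lines between roles. The 20S core genes on the left lie mostly above the 19S genes in the middle, and Vcp lies above Ufd1, Nploc4 and Nsfl1c in each tissue.

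Between tissues, the summed level of the 37 genes was 3601 ± 57.6 TPM (SD, n = 3) in vehicle lung, 3253 ± 48.4 TPM in vehicle colon and 3005 ± 242 TPM in vehicle liver. In bulk tissue, fewer cells of a type and less RNA per cell cannot be told apart. In 1 limma fit of the 9 vehicle libraries, 14 members passed the threshold (adjusted p under 0.05) as higher in lung than in colon and 3 as lower, against 51% and 24.7% of all genes tested. In liver against colon, 6 were higher and 18 lower, against 16.1% and 63.8% of all genes. In liver against lung, 3 were higher and 23 lower, against 13.5% and 74.5%. These directions follow the scaling: with median ratio scaling, which sets the typical gene equal between tissues, 35 members were higher and 0 lower in liver than in colon, 36 higher and 0 lower in liver than in lung, and 3 higher and 15 lower in lung than in colon. Of all genes, 31.3% were then called higher and 41.1% lower in liver than in colon, 29.4% and 48% in liver than in lung, and 40.2% and 32.8% in lung than in colon. The median of all genes as deposited was itself -0.68 on the log2 scale in liver against colon, -1.10 in liver against lung and 0.35 in lung against colon, and the members' median was -0.15, -0.25 and 0.15. As a share of transcripts the members were thus lower in liver than in lung, by less than the typical gene was.

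A few members departed from the rest in a way that does not hang on a scaling factor, since such a factor moves all genes of a library alike. Quantile normalisation is not such a factor. Psmb7, the subunit with the trypsin-like site, was at 108, 124 and 125 TPM in liver, 87.8, 85.8 and 88.0 TPM in lung and 89.6, 93.1 and 90.3 TPM in colon, and the liver libraries lay above all others. It stood 0.20 above the members' median (log2) in colon and 0.76 above it in liver, and was higher in liver than in lung by 0.44 (log2, SE 0.068, limma with Benjamini-Hochberg adjusted p = 0.000198). The lid subunit Psmd12 was 1.22 below the members' median in colon and 0.47 below it in liver, and higher in liver than in colon by 0.57 (SE 0.093, limma adjusted p = 0.000337). Both kept that direction under each scaling tried. At the other end, Psma2 of the alpha ring was at 32.1, 41.0 and 43.1 TPM in liver and 68.5, 65.0 and 67.4 TPM in lung, 0.83 and 0.49 below the members' median. Ufd1 was 1.53 below the median in liver and 0.92 below it in lung. With the deposited TPM, the difference of Ufd1 in liver against lung was -1.05 (limma adjusted p = 5.35e-06), while with median ratio scaling it was 0.014 (adjusted p = 0.899). Psma3, Psmb5, Psmd1, Psmd3, Psmd6 and Nploc4 passed the test between no tissues, and 9 members passed it between all of them.

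Under RECTAS no member passed the threshold in any tissue, and liver was the tissue in which the members lay highest against their controls. In liver, 0 of 37 members were called by limma after Benjamini-Hochberg adjustment over 11944 genes, of which 0.0167% were called. All 37 were higher under RECTAS, with a median difference of 0.20 on the log2 scale and a range from 0.019 for Psma4 to 0.44 for Adrm1. Over all genes tested the median was -0.038 and 40.0% were higher. At an unadjusted p under 0.05, 19 members were higher and 0 lower, and 3.59% of all genes were higher. The 3 RECTAS libraries lay above all 3 vehicle libraries for 26 members, and did so for 5.75% of all genes. The smallest adjusted p of a member was 0.232, for Psmd11. In 1 limma fit of all 18 libraries, which shares the spread over tissues, 2 members passed, Psmd11 (adjusted p = 0.0271) and Psmd4 (adjusted p = 0.0316). That fit called 0.536% of 17537 genes in liver, 43 higher and 51 lower.

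**Figure D2:**
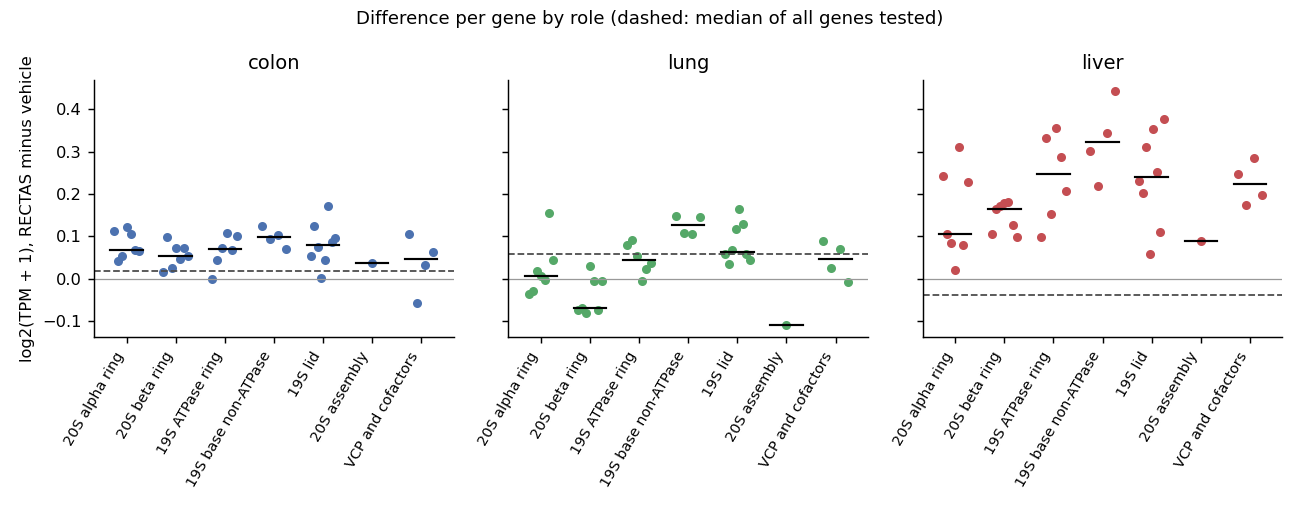
Difference in log2(TPM + 1), RECTAS minus vehicle, for each gene (points) grouped by role, with the median of the role as a black line and the median of all genes tested as a dashed line, in colon, lung and liver. In liver all 37 points lie above 0 and above the dashed line, while in lung the beta ring lies around -0.07 and the dashed line at 0.058.

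The ubiquitin receptors and scaffolds of the 19S base lay highest in liver, with a median of 0.32 over 4 genes. Adrm1, a ubiquitin receptor that also docks a deubiquitinase, was at 56.9, 72.1 and 80.0 TPM in the vehicle libraries and 91.9, 95.3 and 95.1 TPM in the RECTAS libraries. The groups did not overlap, and the means were 69.7 ± 11.7 and 94.1 ± 1.89 TPM (SD, n = 3), a 1.35-fold ratio (limma adjusted p = 0.299). Psmd4, another ubiquitin receptor, was at 78.7, 89.8 and 87.5 TPM under vehicle and 106, 106 and 113 TPM under RECTAS. The groups lay apart by more than the range within either of them, with a difference of 0.34 (SE 0.078, limma adjusted p = 0.244). The scaffold Psmd1 was at 34.0, 43.3 and 45.7 TPM under vehicle and 53.7, 48.8 and 48.9 TPM under RECTAS, and the scaffold Psmd2 at 60.1, 71.3 and 74.0 and 80.9, 77.6 and 79.9 TPM. Neither overlapped between the groups, and in both the vehicle library 1 lay well below the other 2.

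In the lid, which removes ubiquitin chains, the median difference in liver was 0.24 over 8 genes. Psmd11, a structural lid subunit, was at 43.8, 46.4 and 46.8 TPM under vehicle and 61.4, 60.2 and 54.3 TPM under RECTAS, without overlap and with a tight vehicle group. Its difference was 0.35 (SE 0.078, limma adjusted p = 0.232). Psmd14, the deubiquitinase of the lid, was at 32.2, 35.9 and 37.2 TPM under vehicle and 45.7, 43.4 and 48.5 TPM under RECTAS, a 1.31-fold ratio of means. Psmd7, which forms a pair with Psmd14, was at 43.4, 50.6 and 54.2 TPM under vehicle and 60.5, 61.0 and 62.3 TPM under RECTAS, again without overlap. Psmd12, Psmd3 and Psmd6, which build the lid's scaffold, differed by 0.25, 0.23 and 0.20, and their groups did not overlap either. Psmd13 and Psmd8 differed by 0.11 and 0.058, and the RECTAS and vehicle libraries of both were mixed.

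The 6 ATPases of the 19S ring had a median difference of 0.25 in liver, and the groups lay apart for all 6 (5.75% of all genes). Psmc2 was at 44.4, 51.4 and 53.3 TPM under vehicle and 60.9, 61.9 and 65.2 TPM under RECTAS (difference 0.33, SE 0.089, limma adjusted p = 0.292). Psmc4 was at 54.9, 75.9 and 77.3 TPM under vehicle and 85.0, 90.3 and 88.7 TPM under RECTAS. Its difference of 0.36 leaned on the vehicle library 1, and was 0.20 without that library. Psmc5 differed by 0.29, Psmc6 by 0.21, Psmc3 by 0.15 and Psmc1 by 0.10. Without vehicle library 1 these were 0.21, 0.15, 0.11 and 0.059, and Psmc2 was at 0.25.

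The 20S core differed less in liver than the 19S particle, with medians of 0.15 over 14 genes and 0.27 over 18 genes; the gap between them was not tested. In the alpha ring, which gates the barrel, Psma5 was at 48.8, 56.0 and 57.4 TPM under vehicle and 67.8, 65.9 and 67.9 TPM under RECTAS, and Psma7 at 126, 135 and 135 and 156, 151 and 158 TPM. Both lay apart, as did Psma1 (difference 0.24), while Psma2, Psma3, Psma4 and Psma6 overlapped, at 0.11, 0.085, 0.019 and 0.078. In the beta ring the 3 catalytic subunits differed by 0.18 (Psmb5, chymotrypsin-like), 0.13 (Psmb6) and 0.10 (Psmb7), and by 0.098, 0.075 and 0.033 without vehicle library 1. Psmb5 was at 96.5, 116 and 114 TPM under vehicle and 127, 121 and 121 TPM under RECTAS, so its groups lay apart by a small margin. Of the structural beta subunits, Psmb2 (0.17) and Psmb4 (0.18) lay apart, and Psmb1 (0.11) and Psmb3 (0.17) overlapped. Pomp, which helps the core assemble, was at 115, 129.9 and 109 TPM under vehicle and 133, 113 and 130.3 TPM under RECTAS, with mixed groups.

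Vcp in liver was at 119.8, 146 and 154 TPM under vehicle and 171, 159 and 167 TPM under RECTAS, without overlap, a difference of 0.25 (SE 0.10, limma adjusted p = 0.429). Without vehicle library 1 the Vcp difference was 0.14. Nploc4 was at 23.1, 27.4 and 26.0 TPM under vehicle and 31.3, 31.5 and 30.8 TPM under RECTAS, also without overlap (difference 0.28, limma adjusted p = 0.320). Its partner Ufd1 was at 21.8, 25.9 and 22.6 TPM under vehicle and 28.6, 26.3 and 24.8 TPM under RECTAS, with overlapping groups. Nsfl1c lay apart, at 47.6, 54.3 and 54.7 TPM under vehicle and 62.3, 58.1 and 59.4 TPM under RECTAS. The 6 members with an antioxidant response element core spanned 0.13 (Psmb6) to 0.44 (Adrm1) in liver. The 13 with an ETS site spanned 0.078 (Psma6) to 0.44, Adrm1 holding both. Members whose matched promoter held neither spanned 0.019 (Psma4) to 0.38 (Psmd14).

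**Figure D3:**
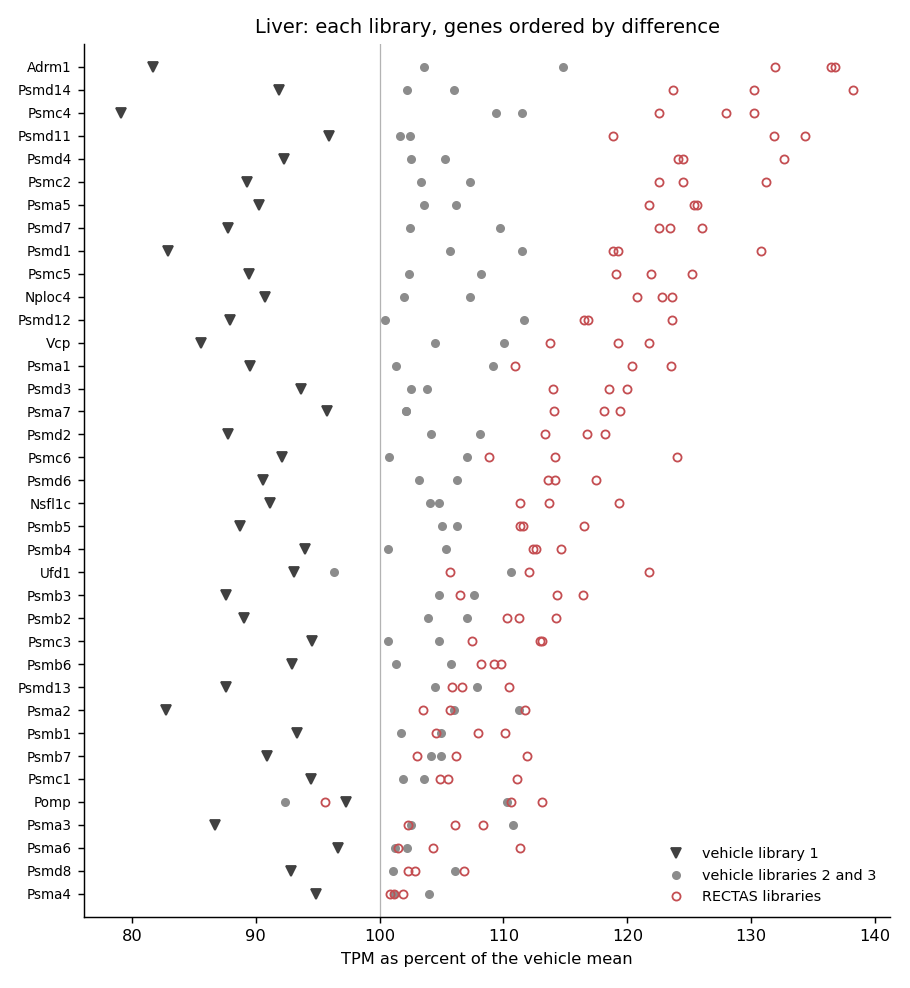
TPM of each liver library as a percent of the vehicle mean of the gene, for the 37 genes ordered by their difference, with vehicle library 1 as triangles, vehicle libraries 2 and 3 as filled points and the 3 RECTAS libraries as open points. Vehicle library 1 is the lowest of the vehicle group for 36 genes, and the RECTAS libraries lie above all vehicle libraries for 26.

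The liver values depended in part on vehicle library 1. The summed level of the 37 genes was 2728 TPM in that library, 3113 and 3174 TPM in the other 2 vehicle libraries, and 3473, 3354 and 3439 TPM in the RECTAS libraries. Without it, 34 of 37 members were higher, the median difference was 0.13, 12 were higher at an unadjusted p under 0.05 (3.19% of all genes), and 26 lay apart (7.69% of all genes). Psma2, Psma3 and Psma4 then turned to -0.021, -0.014 and -0.018, and the median was 0.078 for the 20S core and 0.18 for the 19S particle. Adrm1 was at 0.31 and Psmd11 at 0.32 without it. In all, 18 of the 37 differences moved by more than 1.5 times when it was left out. The count at an unadjusted p under 0.05 was 11 without RECTAS library 1 and 10 without RECTAS library 3, and 2.89% and 2.07% of all genes were then higher at that level. Under RECTAS the summed endothelial markers were 19.2 to 27.6 TPM in liver and 25.3 to 32.4 TPM under vehicle, with 0 of 4 higher, and the hepatocyte markers were 93191 to 107084 TPM under RECTAS, with 2 of 7 higher. Their part in the result was not tested.

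In lung fewer members were higher than in liver or colon. No member passed (0 of 37), and 0.00637% of 15699 genes did. Under RECTAS 25 of 37 were higher, with a median difference of 0.036, and over all genes 65.4% were higher with a median of 0.058. Among the 4554 genes with a mean level within the members' range, 76.7% were higher with a median of 0.085, above the members' 67.6% and 0.036. At an unadjusted p under 0.05, 2 were higher, against 10.7% of all genes. The groups lay apart with RECTAS higher for 8 members (16.1% of all genes) and with RECTAS lower for 1, Psmb6 (3.18% of all genes). The direction turned with the scaling: 12 members were higher with median ratio scaling, 11 when quantiles were equalised and 13 when mitochondrial genes and the 20 highest genes were dropped from the total, with medians of -0.033, -0.050 and -0.026.

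Within the lung the 19S genes lay above the 20S genes with the TPM as deposited, 17 of 18 higher with a median of 0.073 against 5 of 14 with a median of -0.0057. Under median ratio scaling, quantile normalisation and the dropping of top genes, 9, 8 and 10 of the 18 were higher, with medians of 0.0036, -0.018 and 0.011, and 1 of the 14 each time, with medians of -0.075, -0.097 and -0.068. With 1 library left out, 4 to 9 of the 14 core genes and 16 to 18 of the 18 were higher. The core count was 9 without RECTAS library 2 and 8 without RECTAS library 1, and its median was then 0.022 and 0.0074. Psmd1 was at 48.6, 47.4 and 48.0 TPM under vehicle and 53.3, 53.7 and 52.9 TPM under RECTAS, without overlap (difference 0.15, SE 0.050, limma adjusted p = 0.337). Psmd11 was at 41.2, 39.6 and 38.7 TPM under vehicle and 47.0, 44.98 and 42.4 TPM under RECTAS, also without overlap (limma adjusted p = 0.359). Psmb6, the only member whose RECTAS libraries all lay below the vehicle libraries in any of the 3 tissues, was at 191, 185 and 191 TPM under vehicle and 179.6, 181 and 177 TPM under RECTAS. Of the beta ring 1 of 7 was higher, with a median of -0.070, and Pomp was at 146, 148 and 151 TPM under vehicle and 113, 151 and 152 TPM under RECTAS, where 1 RECTAS library was low. Over all genes in lung the difference rose with transcript length. Its median was -0.026 for genes whose longest transcript is under 1000 nt, 0.0099 at 1000 to 2000 nt, 0.060 at 2000 to 4000 nt and 0.095 at 4000 nt or more. The members' median longest transcript was 1220 nt in the 20S core and 1986 nt in the 19S particle. Both medians fall in the class of 1000 to 2000 nt, but the 2 parts spread differently over the classes. The longest transcript ran from 859 to 2911 nt over the core genes and from 1387 to 4131 nt over the 19S genes. Only the core thus reached the class under 1000 nt, and only the 19S particle that of 4000 nt or more. The summed alveolar type 2 markers were also higher, 39912 to 43689 TPM under RECTAS, with 6 of 6 higher. So were the endothelial markers, 4 of 4 with 917 to 1168 TPM under RECTAS and 854 to 998 TPM under vehicle, and the smooth muscle markers, 5 of 5 with 164 to 289 TPM and 162 to 217 TPM. Red cell markers (0 of 3 higher) and hepatocyte markers (0 of 7 higher) were lower. The part of length and of these cells was not tested. Without RECTAS library 3, 6 members were higher at an unadjusted p under 0.05 (17.6% of all genes) and 14 lay apart as higher (32.6% of all genes), and without any 1 of the other 5 libraries 0 members were higher at that level. Without vehicle library 2 the median was 0.021.

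In colon the differences were small and mostly positive. No member was called (0 of 37, and 0% of 14282 genes), and at an unadjusted p under 0.05 there were 0 members in either direction, against 0.805% of all genes higher. Of the members 35 of 37 were higher, with a median of 0.071, against 57.2% of all genes with a median of 0.018. The members' median was 0.036 with quantile normalisation and 0.044 when mitochondrial and top genes were dropped from the total. Among the 3923 genes at the members' level 65.4% were higher, with a median of 0.030. The groups lay apart for 6 members (3.43% of all genes): Psma1, Psma4, Psmd6, Psmd7, Psmd12 and Vcp. Psmd12 was at 33.8, 32.8 and 33.02 TPM under vehicle and 38.7, 37.9 and 36.0 TPM under RECTAS, the largest difference of a member in colon at 0.17 (SE 0.075, limma adjusted p = 0.9999). Vcp was at 135, 133 and 129.8 TPM under vehicle and 151, 135 and 142 TPM under RECTAS, where the lowest RECTAS library exceeded the highest vehicle library by a narrow margin. Ufd1 (-0.057) and Psmc1 (-0.00053) were the 2 that were not higher. RECTAS library 1 was the highest of its group for 26 members and RECTAS library 2 the lowest for 23. The median was 0.037 without library 1, and the number of members lying apart was 19 without library 2 (6.96% of all genes) and 14 without library 3 (11.8% of all genes). Cell markers varied between the colon libraries: the summed smooth muscle genes were at 3261 TPM in vehicle library 1 and 974 to 1068 TPM in the other vehicle libraries, with 913 to 1813 TPM under RECTAS and 0 of 5 higher. Of the colonocyte markers 5 of 6 were higher, with 13722 to 29254 TPM under RECTAS, and of the cycling cell markers 0 of 4, with 68.5 to 135 TPM under RECTAS and 96.7 to 104 TPM under vehicle. Their part in the result was not tested.

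Across tissues, 23 members were higher under RECTAS in all 3 with the TPM as deposited, but 10 with median ratio scaling, 10 with quantile normalisation and 11 when mitochondrial and top genes were dropped from the total. The difference was largest in liver for 34 members, and for 36, 35 and 35 under those scalings. It leaned in part on liver vehicle library 1. Without that library the liver median was 0.054 in the alpha ring, 0.078 in the 20S core and 0.18 in the 19S particle. The colon medians of these parts were 0.068, 0.067 and 0.080. The difference between tissues was tested for each gene as an interaction in the fit of all 18 libraries. In liver against colon 0 members were called (0.0285% of 17537 genes), 36 of 37 had the larger difference in liver, with a median of 0.13, and 9 were higher at an unadjusted p under 0.05 (1.56% of all genes). Psmd11 led, with 0.31 (SE 0.093, limma adjusted p = 0.589). Over all genes tested, 39.9% had the larger difference in liver, with a median of -0.040. In liver against lung 0 were called (0.0228% of all genes), 35 had the larger difference in liver, with a median of 0.18, and 14 were higher at an unadjusted p under 0.05 (1.7% of all genes). Psma5 led there, with 0.32 (SE 0.11, limma adjusted p = 0.385). Of all genes tested, 35.5% had the larger difference in liver than in lung, with a median of -0.075. In lung against colon 0 members were called (0.0114% of all genes), and 0 passed an unadjusted p of 0.05 in either direction. There 12 of 37 members had the larger difference in lung, with a median of -0.043. Of all genes 58.9% did, with a median of 0.036. Over the 37 genes the differences in colon and liver, and in lung and liver, had Spearman's rho of 0.37 each, and those in colon and lung 0.14, a description over genes measured in shared libraries.

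The inducible subunits of the immunoproteasome replace the catalytic subunits of the core in immune cells and after interferon. A ratio of TPM within a library is not changed by a scaling factor for that library, though quantile normalisation can change it. The ratio of Psmb8 to Psmb5 was 0.834 ± 0.0672 (SD, n = 3) in vehicle lung, 0.475 ± 0.0577 in vehicle liver and 0.262 ± 0.0660 in vehicle colon, and the tissues did not overlap. Psmb10 to Psmb7 was ordered differently, at 1.63 ± 0.151 in colon, 1.24 ± 0.117 in lung and 0.406 ± 0.0345 in liver. Psmb9 to Psmb6 was 0.292 ± 0.0413 in lung, above the 0.124 ± 0.0311 of colon and the 0.110 ± 0.0144 of liver, which overlapped each other. Under RECTAS in liver the 3 ratios were 0.393 ± 0.0714, 0.357 ± 0.0588 and 0.0830 ± 0.0141 in the order given, each below its vehicle mean and with overlapping groups. In lung under RECTAS they were 0.811 ± 0.0800, 1.12 ± 0.0610 and 0.286 ± 0.0214, also below the vehicle means and with overlap. In colon they were 0.262, 1.57 and 0.110, with overlap, the first level with its vehicle mean. The inducible subunits and the activators Psme1 and Psme2 were all lower in liver under RECTAS, 5 of 5 with a median of -0.097 and 0 called, where the constitutive members were all higher. Those 5 were also all lower under each of the 3 other scalings, and 1 of 5 was higher without RECTAS library 1 or without RECTAS library 2. Their median was -0.055 and -0.033 without those libraries and -0.21 without RECTAS library 3. In lung the same 5 genes were also all lower, with a median of -0.067 and 0 called, and stayed so under the 3 other scalings. Without lung vehicle library 1, 1 of 5 was higher there, and the lung median was -0.020, or -0.011 without lung RECTAS library 2. In colon 3 of 5 were higher, with a median of 0.047, and 1 of 5 without colon vehicle library 1. Psmb8, Psmb9 and Psmb10 overlap genes on the opposite strand, so reads from those genes may enter their TPM.

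**Figure D4:**
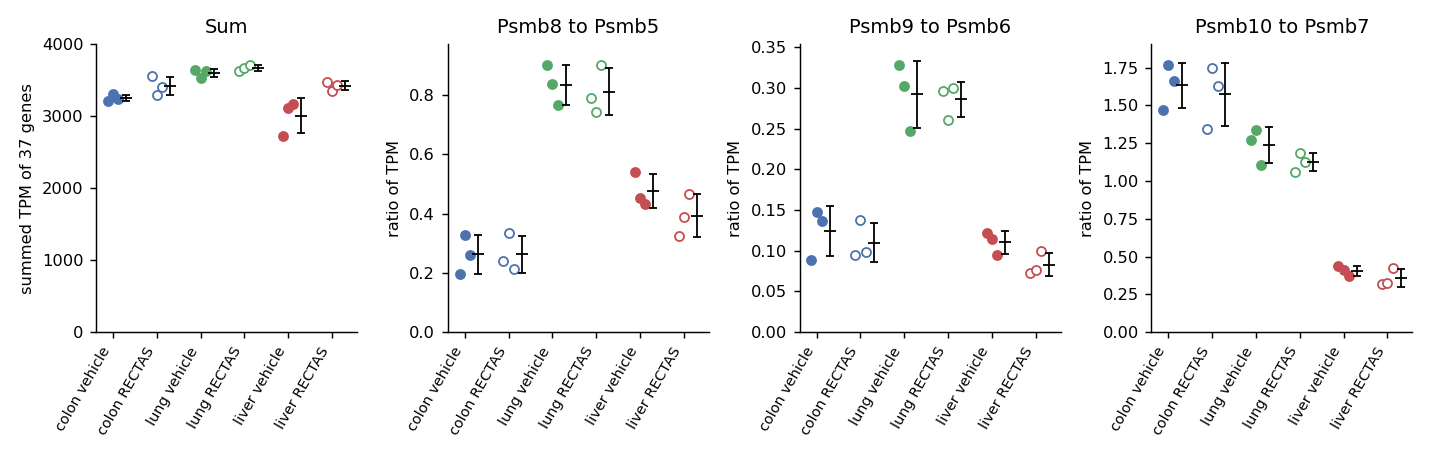
Summed TPM of the 37 genes, and the ratio of TPM of each inducible to its constitutive catalytic subunit, in the 3 libraries of each group (filled points vehicle, open points RECTAS), with the mean and SD as a black bar. The liver sum is higher in all RECTAS libraries than in any vehicle library, and the Psmb8 to Psmb5 ratio separates the 3 vehicle tissues.

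Other genes of the pathway were read from lists of related function, and none of them passed the threshold in any tissue under RECTAS. Of 17 other proteasome genes tested in liver 12 were higher, with a median of 0.093, which was 0.037 without RECTAS library 1, 0.051 without vehicle library 2 and 0.056 without vehicle library 1. Psmd5, a chaperone that assembles the 19S base, was at 16.3, 17.9 and 17.5 TPM under vehicle and 23.3, 20.98 and 26.7 TPM under RECTAS, without overlap (limma adjusted p = 0.268).

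Of the 5 regulators of proteasome genes, 2 were higher in liver, 5 in lung (4 with quantile normalisation) and 5 in colon. Nfe2l1 in liver was at 26.6, 31.5 and 42.4 TPM under vehicle and 34.8, 41.8 and 37.7 TPM under RECTAS, with overlap, and its vehicle library 1 was again the lowest. Ddi2, the protease known to cut the Nfe2l1 protein into its active form, was at 38.3, 39.9 and 42.7 TPM under vehicle and 42.7, 33.1 and 30.2 TPM under RECTAS, with overlap. Nfe2l2, the related factor of the oxidative stress response, lay apart in lung, at 107, 112 and 113 TPM under vehicle and 132, 120.4 and 134 TPM under RECTAS (difference 0.22, limma adjusted p = 0.297). Of the other VCP partners 9 of 23 (39.1%) were higher in liver, 17 of 25 (68%) in lung and 13 of 24 (54.2%) in colon. These lay near the shares of all genes, 40.0%, 65.4% and 57.2%. With median ratio scaling it was 13 of 23 in liver and 11 of 25 in lung, against 49.2% and 48.1% of all genes. Ubxn4, which tethers VCP to the endoplasmic reticulum, was at 24.3, 31.5 and 35.6 TPM under vehicle and 42.2, 47.3 and 41.9 TPM under RECTAS in liver, the vehicle library 1 being lowest (difference 0.52, limma adjusted p = 0.292). Zfand1, which brings VCP and the proteasome to stress granules, went the other way in liver, at 16.8, 19.2 and 16.6 TPM under vehicle and 14.6, 13.4 and 12.9 TPM under RECTAS, without overlap (difference -0.34, limma adjusted p = 0.297).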

How the data were processed

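Gene levels from polyadenylated RNA (TRIzol extraction, TruSeq stranded libraries) were read in 18 mouse libraries. The authors deposited TPM per gene for each library. HISAT2 2.2.0, RSEM 1.3.0 and the build GRCm38 are named, without roles, per the submitters' processing notes. For the annotation release, read filters and counting strand, nothing was given in the sources used here. Read depth is unknown, since TPM does not retain it. Groups came from the labels. Of the 55401 gene IDs, 55141 matched GENCODE M21.

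Values were taken as log2(TPM + 1). Genes that reached 1 TPM in 3 or more libraries were tested with limma 3.58.1 in R 4.3.3, in 1 fit of 6 libraries per tissue for RECTAS against vehicle, 1 fit of the 9 vehicle libraries for tissues, and 1 fit of all 18 for interactions. P-values were adjusted by Benjamini-Hochberg over all genes tested, with a threshold of 0.05. The fit of 6 libraries was tested on simulated liver data, with planted differences larger than any member showed under RECTAS. The other fits were not tested in that way. Groups lie apart where no library of 1 lies within the other. Figures were drawn with Python 3.11.15 and matplotlib 3.10.9. All 37 members could be named. From other pathway lists, genes past the threshold, up to 3 with the smallest unadjusted p, and Psmb8, Psmb9, Psmb10, Nfe2l1, Ddi2 and Ubb could be named. Some genes and lists that this rule covers are not reported here. Members and lists were chosen with earlier results of these data known. Alternatives were pseudocounts of 0.1 and 5, no filter or 5 TPM, median ratio, quantile or rescaled values (without mitochondrial and the top 20 genes), a replicate block, a threshold of 0.1, 1 fit of all libraries, and leaving out each library.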

Additional observations from a re-analysis of the deposited data

How the results depend on the processing

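No member passed under RECTAS with the alternatives tried (pseudocounts, filters, scalings, threshold, single libraries left out), except that 2 were higher in liver in 1 fit of all 18 libraries, which called 0.536% of all genes there. The colon median was 0.036 with quantile normalisation and 0.044 with top genes dropped. In lung, 12, 11 and 13 members were higher (medians -0.033, -0.050 and -0.026) with median ratio scaling, with quantile normalisation, and when mitochondrial and top genes were dropped from the total. The count with a larger RECTAS difference in lung than in colon was 6 with median ratio scaling and 6 with quantile normalisation (median -0.11), and 9 to 19 with 1 library left out, 19 being without colon RECTAS library 1. With 1 liver library left out, Psma2 ranged from -0.021 to 0.19, Psma3 from -0.014 to 0.16 and Psma4 from -0.018 to 0.048, below 0 without vehicle library 1. For liver against colon, median ratio scaling gave 35 higher and 0 lower calls (31.3% and 41.1% of all genes), 37 members higher, a median of 0.65, and Psma2 at 0.19, Psmd8 at 0.28 and Ufd1 at 0.10. Quantile normalisation gave 21 and 1 calls (35.2% and 37.2%), 31 members higher and a median of 0.20, and leaving out 1 library 3 to 9 higher calls, 3 being without colon vehicle library 1 or liver vehicle library 2. For liver against lung, median ratio scaling gave 36 and 0 calls (29.4% and 48%), 37 members higher, a median of 0.83, and Nsfl1c at 0.23, Psma2 at 0.29 and Ufd1 at 0.014. Quantile normalisation gave 14 and 13 calls (36.8% and 39.2%), 19 members higher and a median of 0.051, and leaving out 1 library 1 to 5 higher calls. For lung against colon, median ratio scaling gave 3 higher and 15 lower calls (40.2% and 32.8%), 9 members higher and a median of -0.14, and dropping mitochondrial and top genes gave 1 lower call (23.9%) and a median of 0.19. Leaving out 1 library gave 1 to 3 lower calls there. The cause of these moves was not tested. The correlation of same-numbered vehicle and RECTAS libraries, each taken as deviations from its group mean, was -0.35 to 0.35 in colon and -0.015 to 0.015 in liver. In lung it was 0.49 and 0.46 for numbers 1 and 3 and -0.0076 for number 2, and 4 of 6 lung libraries correlated best with their own number, a hint from the data and not the design. Between vehicle tissues, same-numbered libraries correlated at -0.00013 to 0.047 for liver and colon and 0.032 to 0.046 for liver and lung. For lung and colon it was -0.085 to 0.054. The count of libraries that correlated best with their own number was also 4 of 6 for vehicle liver and lung. It was 3 of 6 for liver and colon and 2 of 6 for lung and colon. Between vehicle and RECTAS it was 2 of 6 in colon and 0 of 6 in liver. Since no tissue and no pair of tissues had all 3 over 0.1, the numbers were not used as pairs. The labels do not say whether tissues came from the same mice, and the tests between tissues treated their libraries as independent. The replicate block gave 1 lower call in lung against colon (24.4% of all genes), where 3 were called without it, and 0 member calls under RECTAS. TPM keeps no depth, so no counting error can be given.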
